A study of Mastomys natalensis with 3 samples.

Results

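Keratins 8, 18, 19 and 4 and a set of epithelial adhesion proteins were followed across 3 rat expression arrays that had been hybridised with Mastomys stomach RNA. All probe sets carrying 1 of 10 chosen gene symbols were taken. Of those genes, 9 had a probe set that the platform annotation gave to that gene alone, out of 4736 such genes on the array, and 13 probe sets represented them. Cdh1, the E-cadherin gene, had none and is not analysed here. Krt18, Krt19, Cldn7 and Cdh17 had a pair of probe sets each and the other 5 genes had 1.

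The carcinoid array held RNA of a Mastomys natalensis stomach in which an enterochromaffin-like (ECL) cell carcinoid had arisen spontaneously. The other arrays held RNA of animals given loxtidine, a blocker of the histamine H2 receptor, for 16 or for 8 weeks. The labels describe all 3 samples as cells enriched for ECL cells, the histamine-producing endocrine cells of the acid-secreting stomach. Their source field, however, reads gastric mucosa for carcinoid and 16 weeks and gastric ECL cells for 8 weeks. The sources used here give neither the age nor the number of the animals behind a sample. The carcinoid description names no drug, so tumour and loxtidine exposure cannot be told apart in comparisons with that array. No untreated animals without a carcinoid entered the comparisons. With 1 array per group there is no replicate error, no test was possible, and each difference below describes these arrays. All 3 arrays also carry different lot labels, and a lot effect cannot be told apart from the group.

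Keratins are the intermediate filaments of epithelial cells and form obligate pairs of a type I and a type II chain. Krt8 (type II) pairs with Krt18 or Krt19 (type I) in simple, single-layered epithelia such as the glandular stomach, whereas Krt4 belongs to the stratified lining of the oral cavity, the oesophagus and the rodent forestomach. The filaments are anchored to neighbouring cells and to the basement membrane at junctions. Tjp1 (ZO-1) is the cytoplasmic scaffold of tight junctions and Cldn7 one of their transmembrane claudins. Jup (plakoglobin) links cadherins to the cytoskeleton in desmosomes and adherens junctions, Cdh17 is the cadherin of intestinal epithelium, and Itgb4 is the integrin chain that ties keratins to the basement membrane in hemidesmosomes.

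Simple-epithelial keratins read higher on the carcinoid array than on the 8-week array, Krt4 read lower, and the 16-week array lay between them or beside the carcinoid array for most probe sets. Values below are intensities after quantile normalization, which gives every array the same distribution, and each probe set is compared only with itself. A floor of 12.4, the pooled median of all normalized values, was set by convention, and readings under it were not ordered among themselves. Readings under it were raised to it for fold changes, which makes such a fold a bound ("at least"). Of the 13 probe sets, 10 reached the floor on at least 1 array, 5 reached it on all 3 arrays and 3 on none. By array, 10 reached it in carcinoid, 9 at 16 weeks and 6 at 8 weeks.

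**Figure D1:**
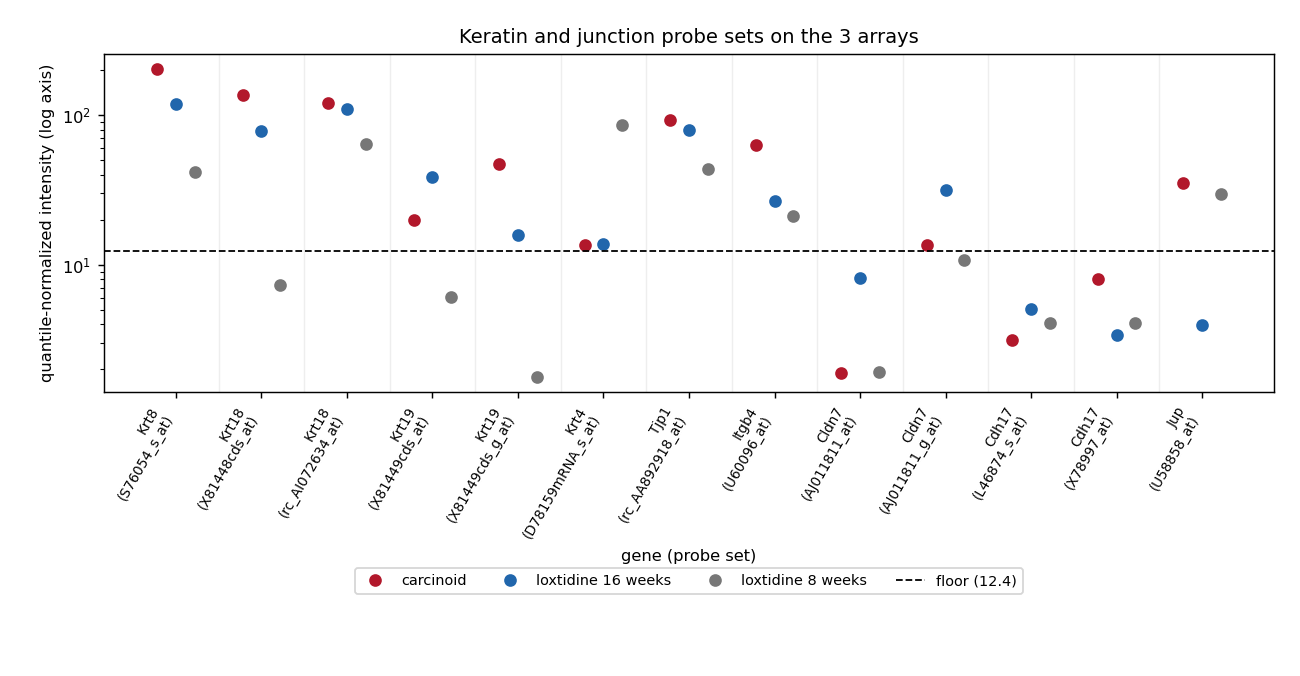
Normalized intensity (log axis) of each keratin and junction probe set on the carcinoid, 16-week and 8-week arrays, 1 point per array; the dashed line is the floor of 12.4. The 8-week point is the lowest of the 3 for 8 of the 13 probe sets, and for Krt4 it is the highest. The order among points under the line was not relied on.

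Krt8 showed the clearest gradient among probe sets measured on every array. Normalized intensity was 202 in carcinoid, 118 at 16 weeks and 41.5 at 8 weeks, so the order was carcinoid, 16 weeks, 8 weeks. This made Krt8 4.87-fold higher in carcinoid than at 8 weeks, and 99.1% of all named probe sets had a smaller log2 difference in that comparison. At 16 weeks Krt8 was 2.84-fold higher than at 8 weeks. Carcinoid stood 1.71-fold above 16 weeks, or 0.78 on the log2 scale. In place of a replicate error, the disagreement between 2 probe sets of the same gene was taken (root mean square of their gap in log2 difference, divided by the square root of 2). It came to 0.85 over 395 genes for carcinoid and 0.79 over 410 genes for 16 weeks, each against 8 weeks, and to 0.63 over 457 genes between carcinoid and 16 weeks. All 3 Krt8 differences exceeded this spread between probe sets, which holds no variation between animals.

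Krt18, the type I partner of Krt8, followed the same order on both of its probe sets but by very different amounts. The probe set made from the coding sequence read 137 in carcinoid, 78.4 at 16 weeks and, under the floor, 7.29 at 8 weeks. It was at least 11.05-fold higher in carcinoid than at 8 weeks and at least 6.33-fold higher at 16 weeks than at 8 weeks. In the first of these comparisons 99.96% of named probe sets had a smaller log2 difference. The probe set made from an expressed sequence tag (EST) read 120.5, 110.5 and 64.1 on the same arrays in the same order. Its differences were 1.88-fold for carcinoid against 8 weeks and 1.73-fold for 16 against 8 weeks, both under 2-fold. As deposited, without normalization, they were 1.63 and 1.29 on the log2 scale, past 2-fold, and with scaling by the median the carcinoid difference was 1.19. The Krt18 probe sets lay at least 2.55 apart on the log2 scale for carcinoid against 8 weeks, a wider gap than in 95.9% of gene pairs. On carcinoid against 16 weeks they gave 0.80 and 0.12, of which only the first exceeded the spread between probe sets.

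Krt19, the other type I partner, was under the floor on the 8-week array on both probe sets, at 6.05 and 1.78. Its first probe set read 20.0 on the carcinoid array and 38.9 on the 16-week array. Its second, made from the same sequence, read 47.4 on the carcinoid array and 15.8 on the 16-week array. Both therefore placed 8 weeks lowest, and they disagreed on which of the other arrays was highest. The first was 0.96 lower in carcinoid than at 16 weeks on the log2 scale and the second 1.58 higher. That gap of 2.54 was wider than in 99.6% of the gene pairs measured, so no direction of Krt19 between carcinoid and 16 weeks can be given. Against 8 weeks, carcinoid was higher by at least 1.62-fold on the first and at least 3.83-fold on the second, and 16 weeks by at least 3.14-fold and at least 1.28-fold. With the floor at the 25th percentile of all values, 4.19, the first probe set was measured on all arrays, 1.73 higher in carcinoid and 2.68 higher at 16 weeks on the log2 scale, and the second gave bounds of 3.50 and 1.92. With the floor at the 75th percentile, 30.0, none reached 2-fold.

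Krt4 ran opposite to the simple-epithelial keratins. Its single probe set read 13.7 in carcinoid, 13.8 at 16 weeks and 86.6 at 8 weeks. The carcinoid and 16-week readings stood just above the floor and could not be told apart (log2 difference -0.01). Krt4 was 6.34-fold lower in carcinoid than at 8 weeks, where 0.35% of named probe sets had a lower log2 difference. It was 6.29-fold lower at 16 weeks than at 8 weeks. With the floor at 30.0 these became bounds of -1.53 on the log2 scale in both comparisons. Of 123 probe sets whose names mark them, like that of Krt4, as made from an mRNA entry, 26 were at least 2-fold lower in carcinoid than at 8 weeks (21.1%, against 13.7% of all named) and 13 higher (10.6%), with a median of -0.33. Of 308 marked as coding sequence, like both of Krt19 and 1 of Krt18, 17.2% were lower and 17.9% higher. These shares were not tested against each other.

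Squamous markers other than Krt4 were set beside it. Of a list of 20 symbols for genes of stratified epithelium, some of them synonyms, 10 had 12 probe sets, and 8 of those reached the floor. Krt14, a basal squamous keratin, read 3.29 in carcinoid, 36.8 at 16 weeks and 24.9 at 8 weeks. Carcinoid was thus lower than 8 weeks by at least 2.01-fold. The cornified envelope precursor Sprr1a was 2.3-fold higher in carcinoid on 1 probe set, whereas the other, much brighter probe set had a log2 difference of -0.91. No other squamous probe set was shown to be 2-fold from the 8-week array, although some gave bounds, such as Ivl, the involucrin gene, at least 1.78-fold lower in both comparisons. The basal transcription factor Tp63 was under the floor on all arrays. The summed normalized level of the list was 432 in carcinoid, 575 at 16 weeks and 715 at 8 weeks, most of it from Sprr1a. The part of forestomach epithelium in the Krt4 reading was not tested.

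Among the adhesion proteins, Tjp1 and Itgb4 were measured on all arrays and had the same order as Krt8. Tjp1 read 93.1 in carcinoid, 79.7 at 16 weeks and 44.0 at 8 weeks. Its carcinoid value was 2.11-fold the 8-week value and its 16-week value 1.81-fold, and carcinoid and 16 weeks differed by 0.22 on the log2 scale, less than the spread between probe sets. As deposited the difference of 16 against 8 weeks was 1.34 on the log2 scale, past 2-fold. Itgb4 read 62.8 in carcinoid, 26.6 at 16 weeks and 21.3 at 8 weeks. Here carcinoid stood apart from both, 2.95-fold above 8 weeks and 2.37-fold above 16 weeks, while 16 and 8 weeks differed by 0.32 on the log2 scale, less than the spread.

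Cldn7 and Jup had other patterns. The brighter Cldn7 probe set was highest at 16 weeks, reading 13.5 in carcinoid, 31.7 at 16 weeks and, under the floor, 10.8 at 8 weeks. It was 2.35-fold lower in carcinoid than at 16 weeks and at least 2.56-fold higher at 16 weeks than at 8 weeks. The dimmer one, of the same sequence, was under the floor everywhere, at 1.89, 8.22 and 1.92. Jup, by contrast, was lowest at 16 weeks: it read 35.2 in carcinoid, 3.96 at 16 weeks and 29.6 at 8 weeks. Jup was at least 2.84-fold higher in carcinoid than at 16 weeks, and 16 weeks stood at least 2.4-fold below 8 weeks, with carcinoid and 8 weeks 0.25 apart on the log2 scale. As deposited, 16 weeks stood at least 0.96 below 8 weeks on the log2 scale. This is a bound, since the deposited 16-week reading of 4.3 was raised to the floor of 12.2, and it does not itself reach 2-fold. With the floor at 30.0 no 2-fold difference of Cldn7 or Jup was left, so both rest on dim readings.

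Cdh17 gave no usable signal. Its probe sets read 3.13 and 8.06 in carcinoid, 5.05 and 3.4 at 16 weeks and 4.05 for both at 8 weeks, all under the floor. A reading under the floor on a rat array does not show that the Mastomys transcript was absent. Of 16 listed symbols for genes of intestinal epithelium, 13 had 19 probe sets, and 9 of these passed the floor somewhere. In carcinoid against 8 weeks 1 of 8 compared was at least 2-fold higher (15.0% of all named) and 2 were lower (13.7%), with a median of -0.41. The higher one was Lgals4, a galectin of gut epithelium, at 78.0 in carcinoid, 5.14 at 16 weeks and 7.16 at 8 weeks. Both lower ones belonged to Lct, the lactase gene, whose probe sets read 7.38 and 3.92 in carcinoid, 37.9 and 34.7 at 16 weeks and 49.2 and 47.0 at 8 weeks. In carcinoid they stood at least 3.98-fold and at least 3.8-fold below 8 weeks.

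Counted together, the simple-epithelial keratins and adhesion proteins stood mostly on the high side in carcinoid. In carcinoid against 8 weeks, 5 of the 10 probe sets that could be compared were at least 2-fold higher, where 15.0% of all 4530 named probe sets were. Krt4 alone was at least 2-fold lower, where 13.7% of all were. The median log2 difference was 0.996, against -0.02 over all. As deposited 6 were higher and 1 lower, where 26.3% and 5.99% of all were, and the median of all was shifted by 0.44. In 16 against 8 weeks, 4 of 10 were at least 2-fold higher (14.2% of all 4508) and 2, Krt4 and Jup, at least 2-fold lower (13.0% of all), with a median of 0.82 against 0.00 over all. As deposited the split was 6 higher and 1 lower, but then 22.3% of all named probe sets were higher and 6.18% lower, and the median of all was shifted by 0.35. In carcinoid against 16 weeks, 3 of 10 were at least 2-fold higher (9.63% of all 4394) and 1, Cldn7, was at least 2-fold lower (9.56% of all), with a median of 0.50 against 0.00. The 2 comparisons with 8 weeks share that array and are not independent of each other.

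Probe sets that reach the floor on 1 array alone had to differ, so these counts describe and do not test. With no filter, on log2 of the value plus the floor, all 13 probe sets enter. Then 4 were at least 2-fold higher in carcinoid than at 8 weeks (9.25% of all 7006 named) and 1 lower (8.15%), with Tjp1 at 0.90 and so short of 2-fold. For 16 against 8 weeks the counts were 3 higher (8.14%) and 2 lower (8.02%). For carcinoid against 16 weeks they were 2 higher (5.22%) and 0 lower (5.3%). The 8-week array had the lowest normalized reading for 8 of the 13, among all named probe sets for 35.9%.

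**Figure D2:**
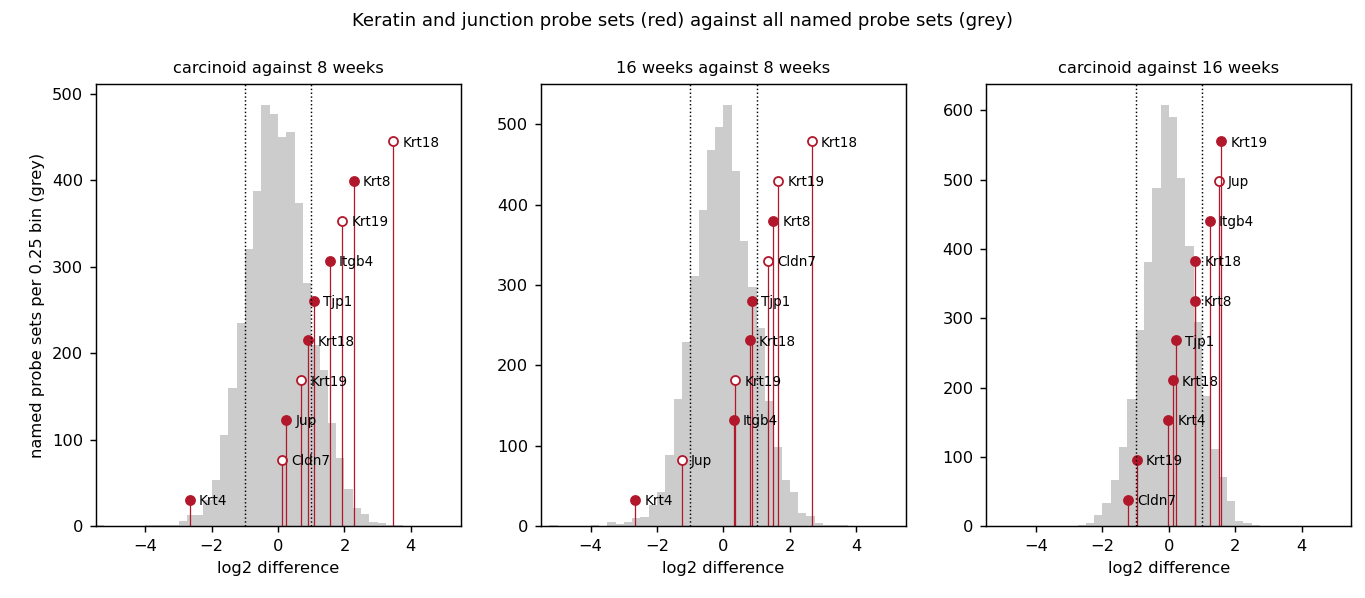
Log2 differences of keratin and junction probe sets (red) over a histogram of all named probe sets (grey, count per bin) in the 3 comparisons; filled points were measured on both arrays, open points are bounds, point height only separates the labels, and dotted lines mark 2-fold. Krt18 and Krt8 lie at the right edge and Krt4 at the left edge of carcinoid against 8 weeks, and the spread of the points is smaller in carcinoid against 16 weeks, from -1.23 to 1.58.

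Control transcripts behaved differently on the 8-week array, and this moved with the comparisons against it. The array carries control probe sets at the 5' end, the middle and the 3' end of GAPDH and of beta-actin. The ratio of 3' to 5' deposited intensity was 2.31 in carcinoid, 1.43 at 16 weeks and 8.95 at 8 weeks for GAPDH, and 11.7, 6.71 and 16.1 for beta-actin in the same order. After normalization the GAPDH controls differed between carcinoid and 8 weeks by 2.49 at the 5' end, 1.32 in the middle and 0.27 at the 3' end on the log2 scale. The corresponding beta-actin differences were 1.34, 1.05 and 0.54. Of the values for carcinoid against 8 weeks, Krt8 (2.29) and Itgb4 (1.56) lay within the range of the GAPDH controls. Tjp1 (1.08) and the EST probe set of Krt18 (0.91) lay within the range of both. The coding-sequence probe set of Krt18 (at least 3.47) lay above every control difference, and Krt4 (-2.66) had the opposite sign. The bounds of Krt19 (at least 0.69 and at least 1.94) lay within the GAPDH range but set no upper limit. Between 16 and 8 weeks the GAPDH controls differed by 2.82, 1.48 and 0.00 from the 5' to the 3' end. The beta-actin controls differed by 1.66, 1.19 and -0.02. Krt8 (1.51), Tjp1 (0.86), Itgb4 (0.32) and the EST probe set of Krt18 (0.79) lay within both ranges. Here the bound of the coding-sequence probe set of Krt18 (at least 2.66) lay under the GAPDH 5' difference. The bounds of Krt19 (at least 1.65 and at least 0.35) also lay within the GAPDH range. These bounds set no upper limit. The position of the keratin and junction probes along their transcripts was not used here, and the part of this gradient in their values was not tested. Between carcinoid and 16 weeks the GAPDH controls differed by -0.34 at the 5' end and 0.27 at the 3' end, and the beta-actin controls by -0.33 and 0.56. When these arrays were normalized without the 8-week array, 3 of 10 probe sets were at least 2-fold higher (9.85% of all named) and 1 lower (9.88%). The median was then 0.51, against 0.00 over all. With all 3 arrays normalized together, the median was 0.22 with the floor at the 25th percentile and 0.23 with it at the 75th. It was 0.20 on log2 of the value plus the floor.

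**Figure D3:**
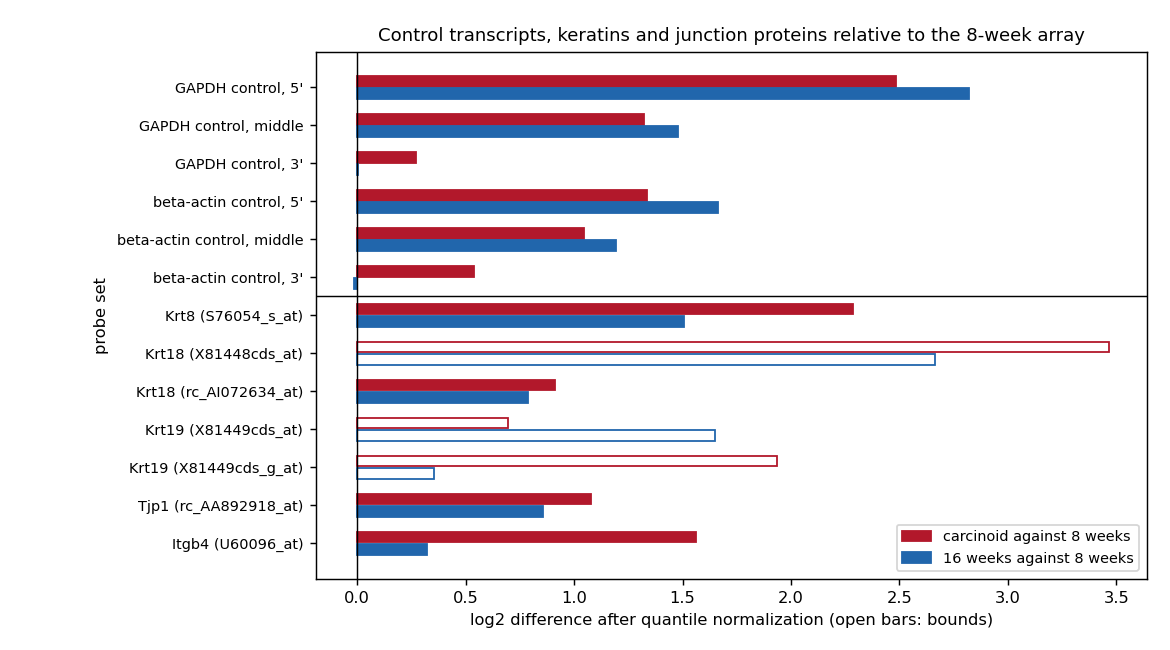
Log2 differences after normalization of carcinoid (red) and 16 weeks (blue) against the 8-week array, for 5', middle and 3' control probe sets (upper part) and for simple-epithelial keratins, Tjp1 and Itgb4 (lower part); open bars are bounds. The control differences shrink towards the 3' end, for GAPDH in carcinoid to 0.27 from 2.49 at the 5' end. That range includes the carcinoid values of Krt8, Tjp1, Itgb4 and the EST probe set of Krt18. It does not include the coding-sequence probe set of Krt18 (at least 3.47). At 16 weeks the bound of that probe set (at least 2.66) lies under the GAPDH 5' bar. The Krt19 bounds lie within the GAPDH range on both arrays, and bounds set no upper limit.

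Some markers of gastric cell types other than ECL cells also differed between the 8-week array and the others. Among all named probe sets, 15.0% were at least 2-fold higher and 13.7% lower in carcinoid than at 8 weeks. For 16 against 8 weeks the shares were 14.2% and 13.0%. A count near these shares, as for the parietal list in carcinoid, does not set a list apart. Of 8 surface and mucous neck cell genes, 6 had 7 probe sets, and in both comparisons with 8 weeks 2 were at least 2-fold higher and 1 lower. The higher ones were both of Muc5ac, the surface mucin, at 212 and 57.7 in carcinoid, 168 and 79.2 at 16 weeks and 15.8 and 12.4 at 8 weeks. The lower one was Tff3 in carcinoid (log2 difference -1.3) and Tff2 at 16 weeks (-1.2). The summed level of that list was 1646 in carcinoid, 1308 at 16 weeks and 1389 at 8 weeks. Most of these sums was 1 probe set, of Tff1, at 1147, 836 and 1126, within 2-fold. Of 13 parietal cell list probe sets, 12 reached the floor, with 2 higher and 2 lower in carcinoid and 3 higher and 1 lower at 16 weeks, and the list's sums were 2513, 3216 and 3002 in carcinoid, at 16 weeks and at 8 weeks. The proton pump gene Atp4a gave at least 4.45-fold higher in carcinoid than at 8 weeks on 1 probe set and a log2 difference of -0.04 on its brightest. Neuroendocrine and ECL cell genes had 26 probe sets for 15 of 18 listed genes. Of 13 compared, 1, of the insulin gene Ins1, was higher and 4 were lower in carcinoid than at 8 weeks. The lower ones were of Chgb (2.12-fold), Syp (2.14-fold), Cckbr (2.10-fold) and Pcsk2 (at least 2.67-fold). Another Pcsk2 probe set was at least 1.45-fold higher. The list summed to 468 in carcinoid, 684 at 16 weeks and 677 at 8 weeks. Another Ins1 probe set gave 135.2, 226.6 and 269.5 of these sums. Hdc, the histamine-synthesising enzyme that defines ECL cells, was under the floor on all 3 arrays. Stromal, immune and chief cell lists had their highest summed levels on the 8-week array. Fibroblast and smooth muscle genes summed to 1046 in carcinoid, 1168 at 16 weeks and 2031 at 8 weeks, with 3 of 24 compared higher and 6 lower in carcinoid and 1 of 27 higher and 3 lower at 16 weeks. In these sums 1 probe set of the matrix gene Dcn gave 261, 316 and 1100 on the same arrays. The list's median log2 difference from 8 weeks was -0.16 in carcinoid and 0.04 at 16 weeks. Endothelial genes summed to 73.0 in carcinoid, 73.3 at 16 weeks and 153.5 at 8 weeks, with 0 higher and 2 lower of 4 compared in carcinoid and of 5 at 16 weeks. Leukocyte genes summed to 219 in carcinoid, 280 at 16 weeks and 420 at 8 weeks, with 0 of 13 higher and 5 lower in carcinoid and 1 of 14 higher and 4 lower at 16 weeks. Chief cell genes summed to 3695 in carcinoid, 4493 at 16 weeks and 5665 at 8 weeks, with 0 higher and 0 lower in carcinoid and 1 higher and 0 lower at 16 weeks. Almost all of the chief cell sum was 1 probe set, of Pgc, at 3666, 4449 and 5625. The sums of the stromal, immune and chief cell lists were thus highest at 8 weeks, as was Krt4, where Krt8 and Krt18 were lowest. This was not particular to those cell types. The sums of the squamous and intestinal lists, and of the other keratin, tight junction, desmosome and gap junction lists described below, were highest there too. Those of the remaining lists were not. The part of a changed mix of cells in the keratin values was not tested, and on bulk RNA fewer cells of a type and less RNA per cell cannot be told apart.

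Other genes of the same structures were counted in the same way. The shares of all named probe sets to set beside these counts were 15.0% higher and 13.7% lower in carcinoid against 8 weeks. They were 14.2% and 13.0% in 16 against 8 weeks. Other keratins had 6 probe sets for 5 of 17 listed genes. Of 4 compared, 0 were higher and 1, Krt14, was lower in carcinoid than at 8 weeks. Intermediate filaments and linkers outside the keratin family had 17 probe sets. Of these, 7 could be compared in carcinoid against 8 weeks, 9 in 16 against 8 weeks and 8 in carcinoid against 16 weeks. No 2-fold difference was shown in any of the 3 comparisons. Some differences were bounds, which set no upper limit. An example is the neurofilament gene Nefl, at least 1.98-fold lower in carcinoid than at 8 weeks on 1 probe set. Plec, the plectin linker that joins keratins to Itgb4 in hemidesmosomes, had log2 differences of 0.05 and -0.50 in carcinoid against 8 weeks. The mesenchymal filament genes Vim and Des, for vimentin and desmin, were under the floor on every array.

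Tight junction genes other than Tjp1 and Cldn7 numbered 12 probe sets for 9 of 32 listed symbols. In carcinoid against 8 weeks 0 of 9 compared were higher and 1 was lower, and in 16 against 8 weeks 1 of 8 was higher and 2 were lower. The probe sets of Ocln, for the tight junction protein occludin, contradicted each other at 16 against 8 weeks, with 1 at least 2.68-fold lower, 1 at least 2.68-fold higher and a log2 difference of 0.54 on the last. Epcam, an epithelial adhesion molecule kept on this list, read 20.6 in carcinoid, 14.7 at 16 weeks and 13.0 at 8 weeks, within 2-fold.

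Adherens junction genes had 5 probe sets and other cadherins 12, of which 3 and 7 could be compared in carcinoid against 8 weeks. None of these was shown to be 2-fold apart, and some, such as Cdh2, Cdh4 and Cdh6, gave only bounds. The adhesion receptor Nectin1 and the cadherin Cdh16 had the pattern of Jup. Nectin1 read 37.5 in carcinoid, 4.32 at 16 weeks and 30.2 at 8 weeks, and Cdh16 read 35.1, 11.2 and 30.5 on the same arrays. Both were lowest at 16 weeks, under the floor. Carcinoid stood above 16 weeks by at least 3.03-fold for Nectin1 and at least 2.84-fold for Cdh16.

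The only desmosome list gene with a probe set, Pkp4, read 9.71 in carcinoid, 27.7 at 16 weeks and 33.0 at 8 weeks, at least 2.67-fold below 8 weeks in carcinoid. Integrin and hemidesmosome genes other than Itgb4 had 20 probe sets for 14 of 29 genes. In carcinoid against 8 weeks 1 of 13 compared was higher, a probe set of the leukocyte integrin chain Itgb7 (at least 2.64-fold), and 0 were lower, with a median of -0.25. The other Itgb7 probe set read 11.3 in carcinoid, 36.3 at 16 weeks and 19.3 at 8 weeks, so that carcinoid was at least 1.56-fold lower than 8 weeks on it. Itgb1, the common beta chain of many matrix receptors, stood at least 2.41-fold below 8 weeks at 16 weeks, and carcinoid and 8 weeks were 0.45 apart on the log2 scale, with carcinoid lower. Of 10 gap junction probe sets compared in carcinoid against 8 weeks, 1 was higher (15.0% of all named) and 4 were lower (13.7%). Their median was -0.71, and some of the lower ones were bounds. Gja5 gave the higher one (at least 2.66-fold) and also 1 of the lower (2.02-fold). The third Gja5 probe set was at least 0.47 higher on the log2 scale, so its probe sets contradicted each other. The connexin gene Gjb5 was 3.05-fold lower in carcinoid on 1 probe set, and its other probe sets had log2 differences of 0.22 and -0.49.

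**Figure D4:**
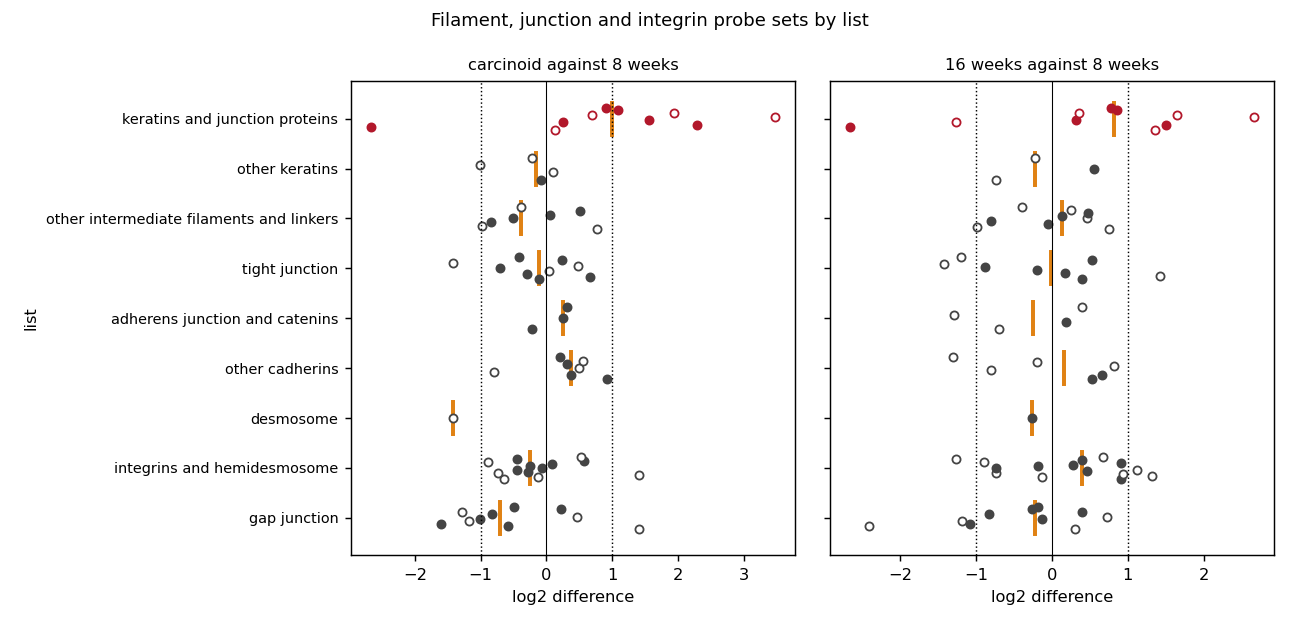
Log2 differences of carcinoid (left) and of 16 weeks (right) against 8 weeks for the keratins and junction proteins (red) and for lists of other filament, junction and integrin genes (black), 1 point per probe set; open points are bounds, orange bars are list medians and dotted lines mark 2-fold. The red median of 0.996 on the left stands to the right of the medians of the other lists, which lie between -1.42 and 0.38. The -1.42 is 1 desmosome probe set, a bound, and the adherens junction and other keratin medians rest on 3 and 4 probe sets.

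Genes with the pattern nearest to those of Krt8 and Krt4 were sought among 2161 named probe sets at or above the floor on all 3 arrays. Nearness was the Euclidean distance between the log2 differences of carcinoid and of 16 weeks from 8 weeks. For Krt8 the nearest were Arrb2 (0.19), Sin3b (0.24), Plpp2 (0.25), Ergic1 (0.26) and Coro1b (0.26), all with log2 differences of 2.06 to 2.39 in carcinoid and 1.27 to 1.63 at 16 weeks. For Krt4 they were Dnajb1 (0.11), Apoe (0.30), Egr1 (0.50), Junb (0.76) and Jun (0.79), and all were lower on both arrays than at 8 weeks. Likeness over 3 arrays is a description of these samples only.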

How the data were processed

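RNA of 3 samples was measured on 1 Affymetrix rat array each, and groups came from the sample descriptions. The authors deposited a linear-scale intensity for each probe set on each array. Their algorithm, background correction and scaling are not given in the sources used here, nor were detection calls used. The intensity scale gives no depth, and the number of arrays limits the precision. Rat probes met Mastomys RNA, so a mismatch can dim a probe set.

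The 2% trimmed means differed by over 5% between arrays (27.6 in carcinoid, 25.5 at 16 weeks, 18.1 at 8 weeks). Arrays were therefore quantile-normalized over the 8740 non-control probe sets, and values under the pooled median (12.4) were raised to it before log2. Probe sets with 1 gene symbol in the platform annotation (7006) formed the background. Up to 4 probe sets per other list, those furthest from 0 in any comparison, could be named. Plec, Vim, Des, Tp63, Hdc, Epcam, Ivl, Nefl, Cdh2, Cdh4, Cdh6, Pgc, Tff1, Chgb and Syp, and further probe sets of named genes, were added after their values were seen. The genes, lists and rules were chosen with earlier results of these data known. The steps were tested on planted differences; quantile normalization compressed them where many bright probe sets of 1 array differed. Python 3.11.15, numpy 2.4.6 and pandas 2.3.3 were used. Alternatives were intensities as deposited, median scaling, floors at the 25th and 75th percentiles, log2 of the value plus the floor, and 1 value per gene.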

Additional observations from a re-analysis of the deposited data

How the results depend on the processing

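Of 144 log2 differences of single keratin and junction probe sets under alternatives, 128 moved by less than the spread between probe sets, 16 by more, all through the floor, and 0 called differences changed sign. For 16 against 8 weeks, the 4 higher became 2 of 7 compared with the floor at the 75th percentile (6.86% of all named). With the brightest probe set per gene they became 2 of 8, and no share over all was computed. The 2 lower became 1 of 10 as deposited (6.18% of all) and 1 of 7 with that higher floor (6.21%). For carcinoid against 16 weeks and the floor at the 75th percentile, the 3 higher became 1 of 9 (2.665% of all). The 1 lower became 0 of 9 there (2.665%). On log2 of the value plus the floor 0 of 13 were lower (5.3%). A higher floor compares fewer readings; the cause of the other shifts was not tested. The remaining counts stayed within 1.5 times. The median over the keratin and junction probe sets kept its sign, but for carcinoid against 16 weeks it ranged over 0.20 to 0.69 about its value of 0.50. Medians of the other lists were not recomputed. As deposited, all named probe sets were shifted by 0.44 in carcinoid and 0.35 at 16 weeks against 8 weeks. Normalizing carcinoid and 16 weeks alone was added after the data were seen. No paired analysis was possible because each group has 1 array, and no replicate could be left out.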
